A study of Caenorhabditis elegans with 6 samples.

Results

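The genes described here carry methyl groups round the methionine and folate cycles of Caenorhabditis elegans, or serve those cycles. They are 10 of the 46748 genes in the count table and were taken by symbol: the enzymes metr-1, mtrr-1, mthf-1, mel-32, sams-1, ahcy-1 and cbs-1, the transporters folt-2 and pmp-5, and the nuclear hormone receptor nhr-114. They were chosen by function and in part by their levels in the 2 groups of libraries compared here, so their differences between these groups are given as a description, with no test, and support nothing. All 10 passed the filter on low counts.

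In the methionine cycle, methionine is joined to adenosine to give S-adenosylmethionine (SAM), the donor of most methyl groups in the cell. After its methyl group is given away, the remaining homocysteine is either remade into methionine with a methyl group from folate and the help of vitamin B12, or leaves the cycle towards cysteine. In C. elegans the enzymes of the cycle are known to be induced through nhr-114 when flux through the cycle is low, as on a diet poor in vitamin B12, and the same shortage induces the propionate shunt, which bypasses a B12-dependent route of propionate breakdown.

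RNA came from whole hermaphrodites of wild-type strain N2, collected 5 days after the L4 stage. In 3 libraries the perturbation is labelled T25B9.1, the target of the RNAi, a gene predicted to encode a glycine C-acetyltransferase of threonine breakdown. In the other 3 it is labelled L4440, the usual RNAi feeding vector without an insert. A second label names RNAi of T25B9.1 for all 6 libraries, so the groups rest on the perturbation label alone. The labels do not say if the 3 libraries of a group came from separate cultures, so p-values measure the spread between these libraries, which may be technical. Levels are given as CPM, the counts of a gene scaled to the library's total with TMM factors.

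The target was not lower under its own label. T25B9.1 (chromosome IV, 10748378 to 10750141, build WBcel235) had 219, 317 and 430 reads in the libraries labelled T25B9.1, against 90, 92 and 132 in those labelled L4440, which is 3.31-fold higher (edgeR adjusted p = 0.00483, SE 0.245 on the log2 scale). Why the target was higher was not tested. Each direction below therefore sets libraries labelled T25B9.1 against libraries labelled L4440, as labelled. Libraries held 26141547 to 34659131 reads in genes under the T25B9.1 label and 25480225 to 38621940 under the L4440 label, of which ribosomal RNA genes held 0.132% to 1.22% under the T25B9.1 label, highest in replicate 2, and 0.0491% to 0.288% under the L4440 label. Oocyte and germline markers were abundant, at a summed 18729 to 19777 CPM and 4840 to 5623 CPM in the libraries labelled T25B9.1 and 17542 to 19742 CPM and 4532 to 5299 CPM in those labelled L4440. Sperm markers were near 0, at a summed 1.64 to 2.45 CPM under the T25B9.1 label and 1.47 to 2.68 CPM under the L4440 label, and ssp-9 had no read in any library.

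The folate transporter gene folt-2, the transporter gene pmp-5, the SAM synthetase gene sams-1 and the receptor gene nhr-114 were lower in each library labelled T25B9.1 than in any labelled L4440. The fitted differences were 5.92-fold for folt-2, 2.18-fold for pmp-5, 1.86-fold for sams-1 and 1.92-fold for nhr-114. The enzymes that remake methionine or feed it with folate methyl groups, metr-1, mtrr-1, mthf-1 and mel-32, and the enzymes ahcy-1 and cbs-1 had groups that overlapped. In the edgeR fit over 13494 genes, 3.42% of all genes tested were past an adjusted p of 0.05, 2.29% lower and 1.13% higher. The members among them were these 4, all lower. Since this contrast helped to choose the members, that count only describes the choice: it is no test of them, and nothing is read from it. The 4 members without overlap stand beside 9.60% of all genes tested that were lower without overlap, 8.29% higher, or 17.9% in either direction, and again nothing is read from this. A negative log2 fold change was found in 9 of the 10 members and 47.4% of all genes tested, and a positive one in 1 member and 52.6% of them. Among the negative values, those of mthf-1 (-0.04), mel-32 (-0.02), mtrr-1 (-0.01) and cbs-1 (-0.007) were small, and nothing is read from this count either. The median log2 fold change was -0.12 over the 10 members and 0.008 over all genes tested.

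**Figure D1:**
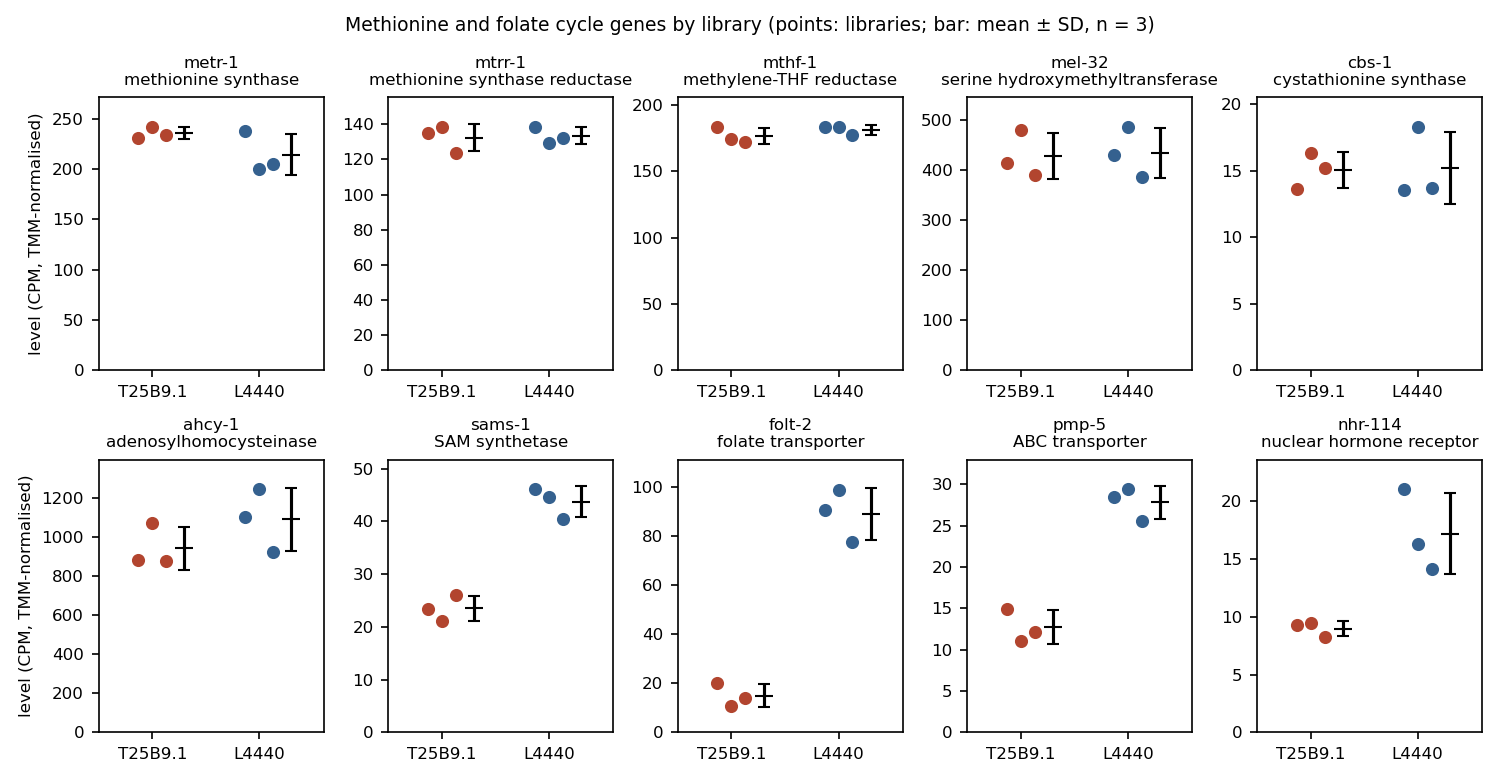
Level of each of the 10 genes in CPM (y axis, linear from 0) in the 3 libraries labelled T25B9.1 (red, left) and the 3 labelled L4440 (blue, right), with the mean and SD of each group beside the points. For folt-2, pmp-5, sams-1 and nhr-114 all red points lie below all blue points, while the points of the other 6 genes overlap between groups.

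The enzymes that hand a methyl group from folate to homocysteine differed little. The gene metr-1 encodes methionine synthase, the B12-dependent enzyme that makes methionine from homocysteine (chromosome II, 10926561 to 10931078, plus strand). It had 231, 242 and 234 CPM in the libraries labelled T25B9.1 and 238, 199.7 and 205 CPM in those labelled L4440. One L4440 library lay among those labelled T25B9.1 and the others below them. Its log2 fold change was 0.14 (95% interval -0.04 to 0.31), the sole positive value among the 10 genes. The reductase that keeps methionine synthase active is encoded by mtrr-1 (chromosome II, 9285975 to 9289132, plus strand), at 135, 138 and 123 CPM in the libraries labelled T25B9.1 and 139, 129 and 132 CPM in those labelled L4440. Its log2 fold change was -0.01 (95% interval -0.16 to 0.13). For mthf-1, whose product makes the methyl-folate that methionine synthase uses (chromosome II, 7773904 to 7777823, minus strand), the levels were 184, 175 and 173 CPM in the libraries labelled T25B9.1 and 183, 184 and 177 CPM in those labelled L4440. The groups overlapped, and the log2 fold change was -0.04 (95% interval -0.17 to 0.10). Its exons share 11 bases with C06A8.6 on the other strand, where reads of the 2 genes cannot be told apart.

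A further step back, mel-32 encodes serine hydroxymethyltransferase, which loads folate with a carbon from serine (chromosome III, 6440145 to 6443000, minus strand). It had 414, 479.9 and 391 CPM in the libraries labelled T25B9.1, against 431, 487 and 386 CPM in those labelled L4440. In both groups replicate 2 was highest and replicate 3 lowest, and the log2 fold change was -0.02 (95% interval -0.26 to 0.21). On the other side of the cycle, ahcy-1 encodes the enzyme that splits S-adenosylhomocysteine, the product of methyl transfer (chromosome I, 6836469 to 6838140, plus strand). Its levels were 885, 1072 and 876 CPM in the libraries labelled T25B9.1 and 1104, 1248 and 924 CPM in those labelled L4440. The groups overlapped, since T25B9.1 replicate 2 lay above L4440 replicate 3, and the log2 fold change of -0.21 had an interval that spans 0 (95% interval -0.49 to 0.07). The exit towards cysteine is opened by cystathionine beta-synthase, encoded by cbs-1 (chromosome X, 10054275 to 10057528, plus strand), at 13.6, 16.3 and 15.2 CPM in the libraries labelled T25B9.1 and 13.6, 18.3 and 13.7 CPM in those labelled L4440. Its log2 fold change was -0.007 (95% interval -0.29 to 0.28). For these 6 genes a change of 1.5-fold in either direction lies outside the 95% interval.

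The SAM synthetase gene sams-1 (chromosome X, 11965962 to 11969893, plus strand) joins methionine to adenosine and so starts the methyl-giving arm. It had 23.4, 21.1 and 26.0 CPM in the libraries labelled T25B9.1, against 46.2, 44.6 and 40.4 CPM in those labelled L4440. The highest library labelled T25B9.1 stayed below the lowest labelled L4440. The means were 23.5 ± 2.44 CPM under the T25B9.1 label and 43.7 ± 2.99 CPM under the L4440 label (SD, n = 3 each), and the log2 fold change was -0.89 (SE 0.0908). Its paralogs sams-3 and sams-4 did not pass by edgeR (log2 fold changes 0.08, SE 0.0787, adjusted p = 0.767, and -0.04, SE 0.0608, adjusted p = 0.851), and neither did sams-5, at under 1 CPM in each library. Levels of different genes can be compared per length, as CPM per kilobase of exon. On that scale sams-1 made up 14.3%, 13.6% and 15.2% of the summed level of the family in the libraries labelled T25B9.1, against 24.7%, 25.1% and 21.8% in those labelled L4440. The family as a whole had 72.5, 68.8 and 75.6 CPM per kilobase in the libraries labelled T25B9.1 and 82.9, 78.9 and 82.1 CPM per kilobase in those labelled L4440. Most of it came from sams-4 and sams-3. These paralogs are similar in sequence, and the sources used here do not say how reads that match more than 1 of them were counted, so their levels and shares are uncertain.

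The widest difference among the 10 genes was in the folate transporter gene folt-2 (chromosome V, 2872465 to 2875600, minus strand). It had 19.9, 10.6 and 14.1 CPM in the libraries labelled T25B9.1, against 90.4, 98.7 and 77.4 CPM in those labelled L4440. Each library labelled T25B9.1 thus lay far below each labelled L4440, although the libraries labelled T25B9.1 varied by 31.5% of their mean (coefficient of variation) and those labelled L4440 by 12.1%. The means were 14.9 ± 4.69 CPM under the T25B9.1 label and 88.8 ± 10.7 CPM under the L4440 label (SD, n = 3 each). The log2 fold change was -2.57 (SE 0.208). Its paralog folt-1, which encodes another folate transporter, was lower as well, at 4.24, 3.53 and 3.54 CPM in the libraries labelled T25B9.1, against 5.38, 5.72 and 6.27 CPM in those labelled L4440 (log2 fold change -0.62, SE 0.133, edgeR adjusted p = 0.0299). That call was lost by edgeR when T25B9.1 replicate 2 or 3 (adjusted p = 0.0870 and 0.105) or L4440 replicate 2 or 3 (adjusted p = 0.0795 and 0.148) was left out, and 11.9% of the exon length of folt-1 is shared with C06H2.7 on the other strand. For folt-3, with 3 to 35 reads per library, the log2 fold change was -0.82 (SE 0.418, edgeR adjusted p = 0.470). The summed level of the 3 genes was 15.4, 8.99 and 11.4 CPM per kilobase in the libraries labelled T25B9.1 and 59.0, 64.2 and 52.0 CPM per kilobase in those labelled L4440. The share of folt-2 in it was 78.7%, 71.7% and 75.3% in the libraries labelled T25B9.1, against 92.9%, 93.3% and 90.4% in those labelled L4440.

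The gene pmp-5 encodes an ABC transporter related to human ABCD4, which moves vitamin B12 out of lysosomes (chromosome V, 6662191 to 6665813, minus strand; the microRNA gene cel-mir-70 lies within its span and outside its exons). It had 15.0, 11.03 and 12.2 CPM in the libraries labelled T25B9.1, against 28.5, 29.4 and 25.5 CPM in those labelled L4440. The groups were well apart, with means of 12.7 ± 2.03 CPM under the T25B9.1 label and 27.8 ± 2.04 CPM under the L4440 label (SD, n = 3 each) and a log2 fold change of -1.12 (SE 0.115). None of its paralogs pmp-1, pmp-2, pmp-3 and pmp-4 passed by edgeR, with log2 fold changes of -0.08, -0.04, 0.04 and 0.19 and adjusted p-values of 0.841, 0.906, 0.912 and 0.627. Within the family's level per kilobase, pmp-5 held 7.09%, 5.23% and 6.02% in the libraries labelled T25B9.1 and 12.2%, 14.3% and 11.6% in those labelled L4440.

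**Figure D2:**
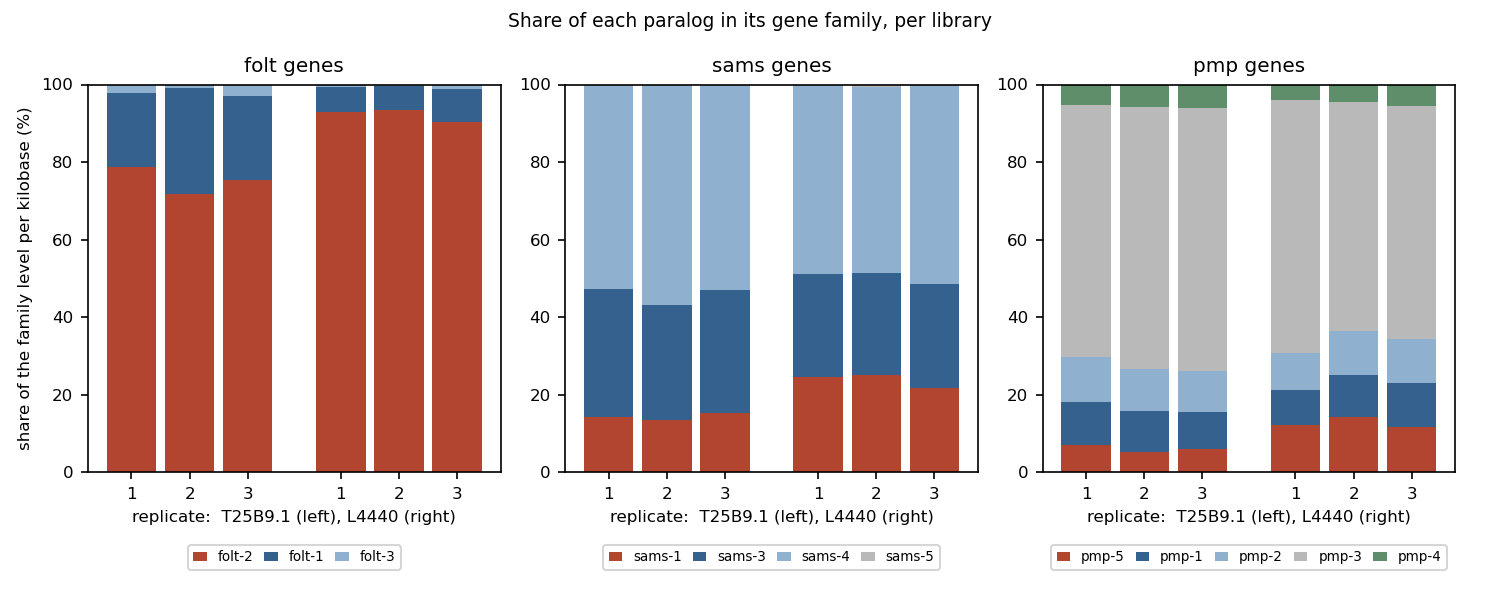
Share of each paralog in the summed level per kilobase of its family (y axis, percent) in each library, with the libraries labelled T25B9.1 on the left of each panel and those labelled L4440 on the right. The red segments are folt-2, sams-1 and pmp-5: each is shorter in all 3 libraries labelled T25B9.1, where folt-2 holds 71.7% to 78.7% of its family, against 90.4% to 93.3% in the libraries labelled L4440.

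The regulator of the group, nhr-114, encodes a nuclear hormone receptor (chromosome V, 4187202 to 4190008, plus strand, inside the span of Y45G5AM.9 on the other strand and with no exon in common). It had 9.25, 9.42 and 8.26 CPM in the libraries labelled T25B9.1, against 21.1, 16.3 and 14.2 CPM in those labelled L4440. The libraries labelled T25B9.1 lay close together and below the others, while those labelled L4440 varied by 20.5% of their mean. The means were 8.98 ± 0.626 CPM under the T25B9.1 label and 17.2 ± 3.52 CPM under the L4440 label (SD, n = 3 each), and the log2 fold change was -0.94 (SE 0.143). Of the 4 lower genes, folt-2, pmp-5 and nhr-114 lie on chromosome V and sams-1 on X. The share of all genes on these chromosomes was not counted, so nothing is read from these positions.

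Per length, the cycle enzymes span a wide range, and the order of the lower genes differs between groups. In the libraries labelled T25B9.1 the order was ahcy-1 (615 ± 71.9 CPM per kilobase, SD, n = 3), mel-32 (254 ± 27.5), mthf-1 (64.6 ± 2.20), mtrr-1 (61.0 ± 3.62), metr-1 (59.7 ± 1.44), sams-1 (10.4 ± 1.08), folt-2 (9.04 ± 2.85), cbs-1 (6.57 ± 0.586), nhr-114 (5.90 ± 0.412) and pmp-5 (5.41 ± 0.862). There mthf-1, mtrr-1 and metr-1 overlapped with their neighbours in this order, and so did all from sams-1 to pmp-5. In the libraries labelled L4440 the order was ahcy-1 (711 ± 105.7), mel-32 (258 ± 30.0), mthf-1 (66.3 ± 1.30), mtrr-1 (61.5 ± 2.17), metr-1 (54.3 ± 5.25), folt-2 (53.9 ± 6.52), sams-1 (19.4 ± 1.33), pmp-5 (11.8 ± 0.869), nhr-114 (11.3 ± 2.32) and cbs-1 (6.62 ± 1.18). There only mtrr-1 and metr-1, metr-1 and folt-2, and pmp-5 and nhr-114 overlapped with each other as neighbours. In the L4440 libraries folt-2 was thus at the level of the methionine synthase gene, and in the libraries labelled T25B9.1 it was at the level of sams-1 and cbs-1.

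Other genes of the same metabolism were taken from lists by function, drawn up with earlier results of these data known. The counts per list below therefore describe the lists and are no test of them. Among the methionine cycle and the enzymes that use SAM, 1 of 15 tested genes was lower and none higher by edgeR, beside 3.42% of all genes tested. It was pmt-2, a methyltransferase of phosphatidylcholine synthesis, at 86.3, 81.4 and 87.5 CPM in the libraries labelled T25B9.1, against 118.6, 113 and 118 CPM in those labelled L4440 (log2 fold change -0.46, SE 0.0585, edgeR adjusted p = 0.00156). Its partner pmt-1, which acts before it, did not pass (log2 fold change 0.18, edgeR adjusted p = 0.264). It had 152.4, 140.5 and 152.9 CPM in the libraries labelled T25B9.1, against 130.0, 124.3 and 139.7 CPM in those labelled L4440. It was thus higher without overlap, beside 8.29% of all genes tested. In the list of phosphatidylcholine synthesis pmt-2 was also the only one of 11 tested genes that passed by edgeR.

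Among the folate enzymes, 4 of 16 tested genes were lower and none higher by edgeR, beside 2.29% lower and 1.13% higher of all genes tested, with 13 negative log2 fold changes and a median of -0.14. Apart from folt-1 these were gldc-1, of the glycine cleavage system that loads folate with a carbon from glycine, and the genes of the folate-dependent enzymes of purine synthesis, atic-1 and F38B6.4. For gldc-1 the levels were 52.2, 50.6 and 49.4 CPM in the libraries labelled T25B9.1 and 68.5, 72.8 and 72.2 CPM in those labelled L4440 (log2 fold change -0.49, SE 0.0595, edgeR adjusted p = 0.00119). For atic-1 they were 23.3, 18.6 and 21.5 CPM in the libraries labelled T25B9.1 and 28.3, 32.9 and 32.8 CPM in those labelled L4440 (log2 fold change -0.57, SE 0.0992, edgeR adjusted p = 0.00964). For F38B6.4 they were 12.2, 10.9 and 9.75 CPM in the libraries labelled T25B9.1 and 19.6, 15.6 and 15.2 CPM in those labelled L4440 (log2 fold change -0.62, SE 0.125, edgeR adjusted p = 0.0203). The call of F38B6.4 was lost without T25B9.1 replicate 3 (edgeR adjusted p = 0.0755). The folate enzymes of thymidylate synthesis, tyms-1 and dhfr-1, did not pass by edgeR (log2 fold changes -0.08 and -0.07, adjusted p = 0.719 and 0.753), and their intervals, -0.22 to 0.06 and -0.22 to 0.07, reach less far than the changes of atic-1 and F38B6.4. Without T25B9.1 replicate 3, 2 genes of this list passed by edgeR.

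Genes of transsulfuration and sulfide handling were measured next to cbs-1. None of 16 tested genes passed by edgeR, beside 3.42% of all genes tested, and the median log2 fold change was -0.004. At that share a list of this size can hold none, so nothing is read from this count. Its low paralog cbs-2 had 16 to 33 reads per library. The gene of cystathionine gamma-lyase cth-2, which acts after cbs-1, had 142.4, 141.9 and 169 CPM in the libraries labelled T25B9.1, against 179, 189.8 and 220.4 CPM in those labelled L4440, without overlap between groups (log2 fold change -0.38, SE 0.0957, edgeR adjusted p = 0.0657). It was past the threshold by DESeq2 (adjusted p = 0.0112), and by edgeR when low counts were not filtered (adjusted p = 0.000515) or when either L4440 replicate 1 or T25B9.1 replicate 3 was left out (adjusted p = 0.0383 and 0.0350). At an unadjusted p under 0.05 this list had 3 genes by edgeR, cth-2 among them. In the list of B12 handling, the canonical propionate route and the pmp paralogs, none of 13 tested genes passed by edgeR or DESeq2. None had an unadjusted p under 0.05 by edgeR. By edgeR 3.42% of all genes tested passed, so nothing is read from this count of none either.

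**Figure D3:**
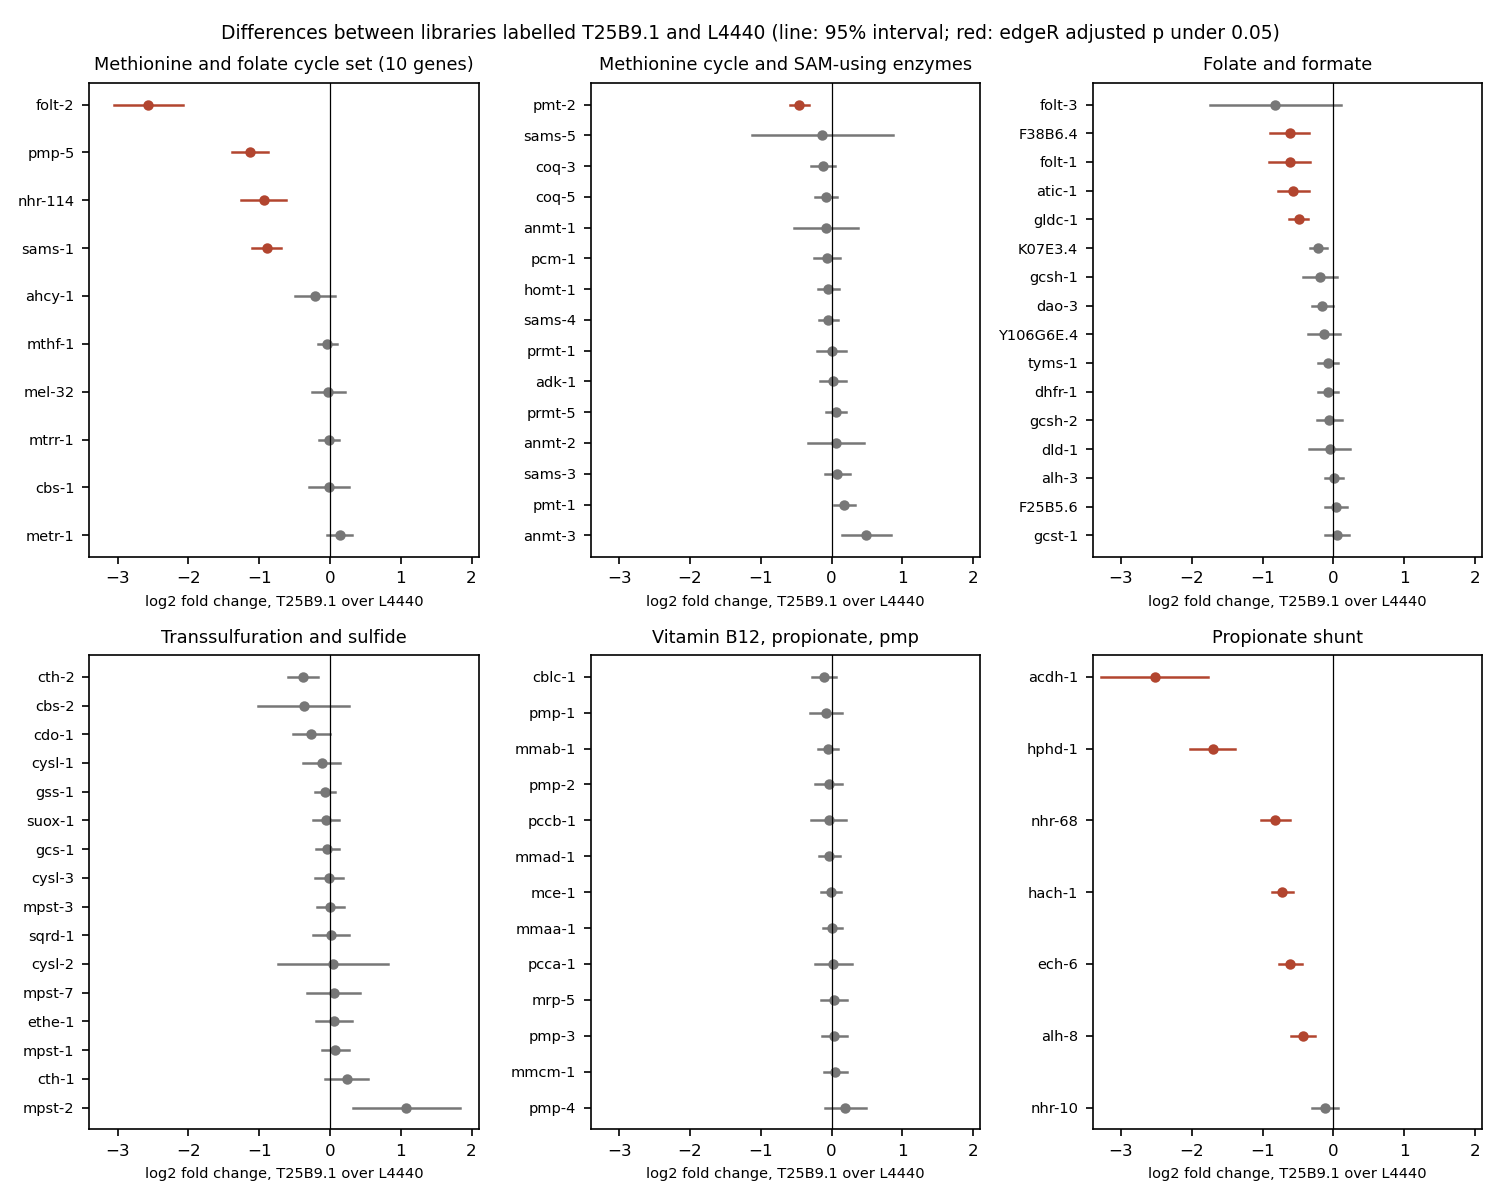
Log2 fold change of T25B9.1 over L4440 (x axis; points, with the 95% interval as a line) for the 10 genes and for the tested genes of 5 lists (y axis, one gene per line). Genes past an edgeR adjusted p of 0.05 are red: 4 of the 10 genes, 1 of 15, 4 of 16, none of 16, none of 13 and 6 of 7, all of them to the left of 0.

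In the list of the propionate shunt, 6 of 7 tested genes were lower by edgeR and none higher, with a median log2 fold change of -0.72, beside 2.29% lower of all genes tested. This list too was drawn up with earlier results of these data known, so that count is a description and nothing is read from it. Besides acdh-1 (log2 fold change -2.52, edgeR adjusted p = 0.0102, SE 0.310) and hphd-1 (-1.70, 0.000329, SE 0.138), enzyme genes of the shunt, hach-1 (log2 fold change -0.72, SE 0.0662, edgeR adjusted p = 0.000270), ech-6 (-0.60, SE 0.0753, 0.00131), alh-8 (-0.43, SE 0.0758, 0.0103) and the receptor gene nhr-68 were lower. The gene nhr-68, which together with nhr-10 is known to activate the shunt, had 17.03, 14.6 and 14.2 CPM in the libraries labelled T25B9.1, against 25.9, 28.9 and 26.2 CPM in those labelled L4440 (log2 fold change -0.82, SE 0.0942, edgeR adjusted p = 0.000852). Its partner nhr-10 did not pass (log2 fold change -0.12, edgeR adjusted p = 0.642). The call of acdh-1 was lost when L4440 replicate 1, 2 or 3 was left out (edgeR adjusted p = 0.0750, 0.0815 and 0.0794) or low counts were not filtered (0.0575), while its log2 fold change stayed between -2.57 and -2.48. That of alh-8 was lost without T25B9.1 replicate 1 (edgeR adjusted p = 0.0668), at a log2 fold change of -0.43. Of the threonine and glycine breakdown list, 1 of 6 tested genes, gldc-1, was lower by edgeR and none was higher.

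For folt-2, sams-1 and nhr-114 the genes with the most similar levels over the 6 libraries were sought among 10296 tested genes with a mean of at least 50 reads. The measure was the root mean square difference of log2(CPM + 0.5) after centring each gene on its own mean, and the label groups account for most of each profile, so closeness here says little beyond a like difference between groups. The nearest gene to folt-2 was acdh-1, at 106.4, 45.1 and 64.2 CPM in the libraries labelled T25B9.1 and 419, 439.5 and 381 CPM in those labelled L4440, with a root mean square difference of 0.11. The next, C35A5.3, stood at 0.32, followed by acs-2 (0.34), hphd-1 (0.45) and K09C4.5 (0.45). Within each group folt-2 and acdh-1 also had the same order of libraries, with T25B9.1 replicate 1 highest and replicate 2 lowest, and L4440 replicate 2 highest and replicate 3 lowest, and pmp-5 had this order as well. How many of the 10296 genes share this order was not counted, so nothing is read from it. The profiles nearest to sams-1 were those of daao-1 (0.08), DH11.2 (0.09), ftn-1 (0.09), C52D10.3 (0.10) and asp-13 (0.10). Those nearest to nhr-114 were icl-1 (0.08), tnt-3 (0.11), W02H5.8 (0.14), DH11.2 (0.15) and kel-8 (0.16). None of the other 9 genes was among the nearest of these 3, and the closest pair of lower members was sams-1 and pmp-5 at 0.17.

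**Figure D4:**
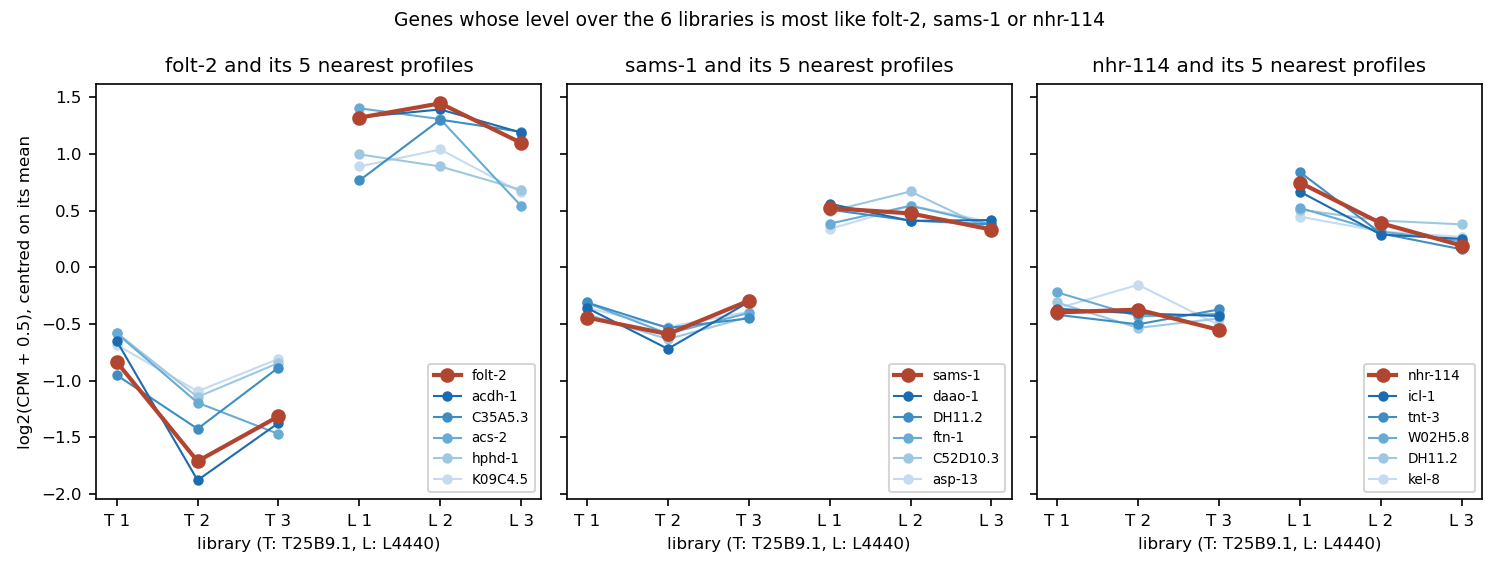
Log2(CPM + 0.5) centred on each gene's mean (y axis) in the 3 libraries labelled T25B9.1 (T 1 to T 3) and the 3 labelled L4440 (L 1 to L 3), for folt-2, sams-1 and nhr-114 (red, 1 panel each) and the 5 genes nearest to each (blue). The line of acdh-1 runs on that of folt-2, at a root mean square difference of 0.11, and the next gene is 0.32 away.

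In RNA from whole animals, fewer cells of a type and less RNA per cell cannot be told apart. The summed level of 12 intestine markers was 1716 to 2131 CPM in the libraries labelled T25B9.1 and 1654 to 1731 CPM in those labelled L4440. Most of that level came from asp-1 and cpr-1. Of these 12 genes, 3 were higher by edgeR (ifb-2, pept-1 and cpr-1) and none lower, beside 1.13% higher and 2.29% lower of all genes tested. Without overlap between groups, 4 were higher and 2 lower, ges-1 and act-5 (log2 fold changes -0.28 and -0.29), beside 8.29% and 9.60% of all genes tested. The median log2 fold change of the 12 was 0.028. By DESeq2 1 intestine marker, ges-1, was lower. By edgeR ges-1 did not pass (log2 fold change -0.28, edgeR adjusted p = 0.0639). Germline markers had 2 of 12 higher (fbf-1 and fbf-2) and none lower by edgeR, and the 12 oocyte markers had none in either direction by edgeR or DESeq2. Hypodermis markers summed to 258 to 273 CPM in the libraries labelled T25B9.1 and 278 to 283 CPM in those labelled L4440, with 1 of 9 tested genes lower (grd-5). Most of that level came from lin-26 (log2 fold change -0.004), and the median log2 fold change of the 9 tested genes was -0.027. The part of any tissue in the lower levels of the members was not tested. None of 12 body-wall muscle and 12 neuron markers passed by edgeR or DESeq2, and 1 neuron marker (sbt-1) and no muscle or oocyte marker had an unadjusted p under 0.05.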

How the data were processed

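The deposited table used here holds whole-number gene counts. Per the submitters' processing notes, featureCounts (1.4.6-p4), STAR (2.4.1d) and bcl2fastq (1.8.4) were used by the authors, with build WBcel235. Per the labels' protocols the libraries come from a TruSeq v2 kit, which leaves strand unmarked. The second deposited table, of RPKM, was not used, because its scaling differs between genes. Groups follow the perturbation label; libraries are numbered in accession order. Symbols matched 43693 of 46748 genes, and positions and exon lengths come from Ensembl's annotation of the same build. Chi-square per degree of freedom between libraries of 1 group was 6.18 to 40.8, where sampling noise gives about 1, so no library is a copy of another in its group. Whether libraries of a group share a culture or an RNA sample cannot be told from this.

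The test was edgeR 4.0.16 (R 4.3.3; quasi-likelihood, robust, TMM, filterByExpr with a minimum count of 10) on 13494 genes with Benjamini-Hochberg adjustment at 0.05; 3 libraries against 3 allow no exact permutation p below 0.1. On simulated data of this comparison (3 runs, 13318 genes on average, 200 changed) it recovered 58.7% of 1.5-fold, 83.1% of 2-fold and 94.9% of 4-fold changes, and 7.62% of calls were false. Standard errors are the log2 fold change over the square root of F. Alternatives were RLE and upper-quartile factors, other filters, DESeq2 1.42.0, limma-voom (limma 3.58.1), a block, each library left out, and another gene length. The members and lists were chosen with earlier results of these data known. The genes named are the 10 members, the target, members' paralogs and up to 4 genes past the threshold per list. Also named are the 5 nearest profiles of folt-2, sams-1 and nhr-114. The genes alh-8, pmt-1, cth-2, cdo-1, mpst-2, nhr-10, tyms-1, dhfr-1 and the tissue markers were named after their values were seen. Of 172 list entries 170 were matched.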

Additional observations from a re-analysis of the deposited data

How the results depend on the processing

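The 4 lower members stayed lower under all 13 alternatives; as they were chosen in part on this contrast, this supports nothing about them. Over all genes, 461 were called (309 lower, 152 higher); with no filter on low counts 719 were, 256 of them higher. Leaving out 1 library gave 272 to 517 calls, 175 to 363 lower and 88 to 154 higher, the fewest in all without L4440 replicate 3. Among the listed genes 11 were lower, 9 to 11 with 1 library left out, and 12 by DESeq2 and with the replicate block; with no filter 1 (anmt-3) was also higher. Log2 fold changes near 0 changed sign. With 1 library left out they ran from -0.054 to 0.035 for mtrr-1, -0.12 to 0.056 for mel-32, -0.10 to 0.13 for cbs-1, -0.60 to 0.22 for sams-5, -0.16 to 0.0069 for pmp-1, -0.10 to 0.0056 for pmp-2 and -0.041 to 0.11 for pmp-3. By limma-voom cbs-1 stood at 0.014 and sams-5 at 0.085. With the length of the longest transcript, mthf-1 had 68.6 CPM per kilobase in libraries labelled T25B9.1 and 70.3 in those labelled L4440, sams-1 had 11.7 and 21.8, the share of sams-1 was 13.4% under T25B9.1 and that of sams-3 was 27.97% under L4440. The labels give no replicate numbers; with consecutive title numbers as a replicate block, 597 genes were called, cth-2 was called lower (log2 fold change -0.38, edgeR adjusted p = 0.00538, against 0.0657 with no block) and cbs-1 stood at 0.00099. Deviations of the 3 such pairs correlated at -0.12, 0.20 and 0.42. Other pairs were not correlated for comparison, so these values cannot decide whether the libraries are paired. The cause of these shifts was not tested. With 3 libraries a group, changes can be missed, in the simulation more often at 1.5-fold than at 2-fold or 4-fold, and outlying libraries cannot be tested for.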
